A study of Populus davidiana with 6 samples.

Results

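The genes described here lie tail to tail on the poplar genome and run into each other at their 3′ ends. A pair consisted of neighbouring genes with at least 1 known transcript, the first on the plus strand and the next on the minus strand, in which the second gene started at or before the end of the first and ended beyond it. A gene's span ran from the smallest start to the largest end of its listed transcripts. This rule, which used positions and no FPKM values, found 509 pairs among 37403 neighbouring pairs, or 1018 genes among 38379 with a known transcript. The listed transcripts include many assembled from the reads, so a gene's span, and with it membership, can depend on expression. No gene belonged to more than 1 pair.

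The 6 libraries hold leaf RNA of the aspen Populus davidiana, from seedlings of the cultivar Seogwang9, which the labels give as drought tolerant. The plants were regenerated from internode culture on Murashige and Skoog medium with sucrose and naphthalene acetic acid, and were about 6 weeks old. In the air-dried group (3 libraries) plants were uprooted, rinsed and dried in the open for about 10 minutes, and the control group (3 libraries) was labelled control. The labels do not say whether controls were uprooted and washed too. Nor do they say whether the 3 libraries of a group stem from different plants, so the p-values reflect a spread between samples that may be technical. Neither gene names nor functions are paired with the accessions in the files, so leaf marker genes could not be checked, and genes are given by position. Positions are those of the deposited files, which name no genome build. In bulk leaf RNA, fewer cells of a type and less RNA per cell cannot be told apart.

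Convergent genes are transcribed towards each other, and where their exons overlap each mature RNA carries a stretch complementary to its partner. In plants such natural antisense pairs are known as possible sources of small interfering RNAs, and a classic Arabidopsis case is a stress-induced gene whose RNA pairs with that of its neighbour. Convergent transcription can also lead polymerases to collide, and the sites of cleavage and polyadenylation decide how far each transcript reaches. A read without strand information cannot be assigned to either RNA of such a pair inside the overlap. The labels name no strand setting, so reads of the 2 partners may not have been told apart there. No reference sequence was used, and none is shown. Exon positions were not available, so an overlap of spans may lie in introns and need not give complementary RNA.

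The overlaps were mostly short. Their median length was 530 bp, with quartiles at 183 and 1181 bp, and they ranged from 2 to 276973 bp. Of the 509 pairs, 88 overlapped by under 100 bp, 153 by 100 bp to under 500 bp, 112 by 500 bp to under 1000 bp, 116 by 1000 bp to under 5000 bp and 40 by 5000 bp or more. In the median pair the overlap covered 27.0% of the shorter span, and in 158 pairs it covered over 50%. The known transcripts alone overlapped in 219 pairs (43%), with a median overlap of 737 bp. In the other 290 pairs the overlap existed only through transcripts assembled from the reads, with a median of 432 bp. Some long overlaps came from genes that joined several reference loci: 32 of the 40 pairs with over 5000 bp had a partner whose transcripts carried more than 1 locus accession, against 85 of all 509. Chromosome 1 held the most pairs (57) and chromosome 19 the fewest among the numbered chromosomes (9), and 11 pairs lay on scaffolds.

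**Figure D1:**
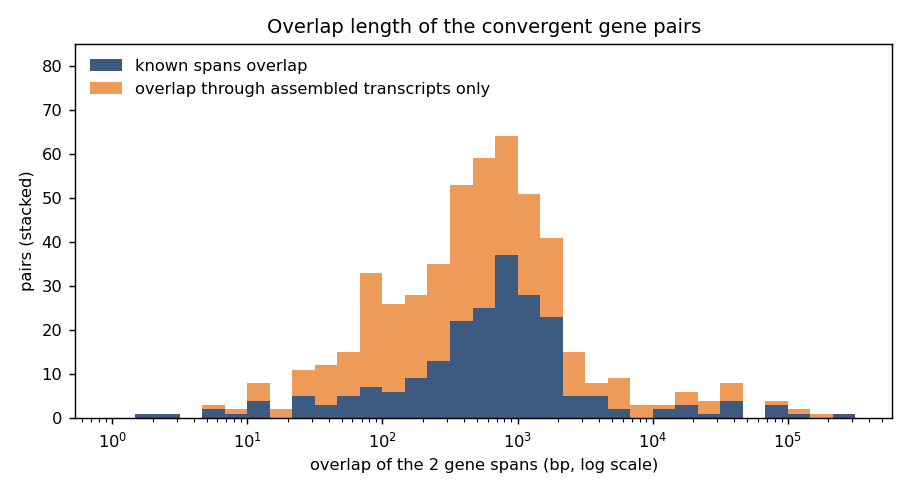
Number of overlapping convergent pairs (vertical axis) by length of the overlap in bp (horizontal axis, log scale), stacked by whether the known transcripts overlap (219 pairs) or the overlap exists only through assembled transcripts (290 pairs). Most overlaps lie between about 100 and 1000 bp, around the median of 530 bp, with a thin tail above 5000 bp.

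Levels are FPKM, fragments per unit of transcript length and of mapped fragments, summed over a gene's transcripts. Read numbers are unknown, and levels are therefore given without counting intervals. The median FPKM of all 22356 tested genes was 11.8 to 12.5 in the air-dried libraries and 12.0 to 12.6 in the controls. By rank correlation, with no batch named in the labels, the libraries formed 2 sets across the groups. Set A held air-dried 1 with controls 1 and 2, and set B held air-dried 2 and 3 with control 3. Ranks of the members' transcripts correlated at 0.821 to 0.848 within a set and at 0.786 to 0.810 across sets.

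Most members were expressed in leaves, but in many pairs only 1 partner was. The level needed for testing, a 6-library mean of 1 FPKM or more, was reached by 780 of the 1018 members (76.6%), against 54.5% of all genes with a known transcript. Many overlaps existed only through transcripts assembled from the reads, which need expression. Whether this raised the share of members reaching the level was not tested. With pairs chosen by known spans, 330 members of 221 pairs reached it. Both partners reached it in 290 pairs, 1 partner in 200 pairs and neither in 19. In the 200 one-sided pairs the expressed partner had a median of 13.5 FPKM, with a highest value of 1221, while its partner had a median of 0.181 FPKM. In 47 of them the low partner was listed at 0 in every library although its span overlapped that of an expressed gene. The minus-strand gene was the expressed one in 126 of these pairs and the plus-strand gene in 74.

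Where both partners were expressed, their levels usually stood far apart. The median distance between partners was 1.44 on the log2(FPKM + 1) scale, against 1.58 in all other neighbouring pairs with both genes tested. Levels differed by more than 2 on that scale in 111 of 290 pairs (38.3%), against 40.1% of other neighbours. The order of the partners was fixed in most pairs: the plus partner was the higher one in all 6 libraries in 126 pairs and the minus partner in 123. The order was mixed within a group in 34 pairs, and in 7 it turned between the groups. Across the 290 pairs the levels of the partners had a Spearman correlation of 0.11, a description over pairs measured in the same 6 libraries. Among members of these pairs, transcripts that reach into the partner carried over 50% of the gene's FPKM in 456 of 580 genes. Where the overlap needed assembled transcripts, that share had a median of 96.4% in air-dried and 94.1% in control leaves.

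The main comparison asked which of these genes differed after drying and whether partners moved together. In air-dried leaves 48 members rose and 31 fell, 79 of the 780 tested (10.1%). Over all tested genes 13.0% changed, with 5.60% rising and 7.44% falling, and among members 6.15% rose and 3.97% fell. The calls came from limma on log2(FPKM + 1) with a Benjamini-Hochberg adjusted p under 0.05 over all genes. The median log2 change was 0.02 over the members and 0.01 over all tested genes. Among called members the median log2 change was 0.64 for rises and -0.63 for falls. The groups did not overlap, with air-dried leaves higher, in 129 members (16.5%, against 15.9% of all genes), and with air-dried leaves lower in 100 (12.8%, against 16.8%). Plus-strand genes gave 20 rises and 15 falls, and minus-strand genes gave 28 rises and 16 falls. Leaving out a library lowered the counts to 23 to 36 rises and 16 to 21 falls: 29 and 19 without air-dried 1, 27 and 18 without air-dried 2, 23 and 19 without air-dried 3, 26 and 20 without control 1, 24 and 16 without control 2, and 36 and 21 without control 3. Over these settings the called share was 5.13% to 7.31% of members and 6.62% to 8.91% of all tested genes. With a term for the library set 74 members were called, 64 of them shared with the 79. Of the 780 tested members, 18 had a mean under 1 FPKM in 1 group, and 1 of these was called. Contrasts within set A or within set B each rest on a single library in 1 group, so only sizes of change are given for them below.

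Joint changes of both partners were few. Both partners rose in 4 of 290 pairs (1.38%, against 0.568% of all neighbouring pairs) and both fell in none (against 0.813%). At an unadjusted limma p under 0.05 both rose in 12 pairs (4.14%, against 2.44% of all neighbouring pairs) and both fell in 7 (2.41%, against 2.83%). The partners changed in opposite directions in 1 pair (0.345%, against 0.679%). At the unadjusted threshold 8 pairs did so, where the share over all neighbouring pairs was 3.24%. Exactly 1 partner was called in 54 pairs (18.6%, against 22.6%), with 28 rises and 26 falls. In 231 pairs neither partner was called. No test of the difference between these shares was run.

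**Figure D2:**
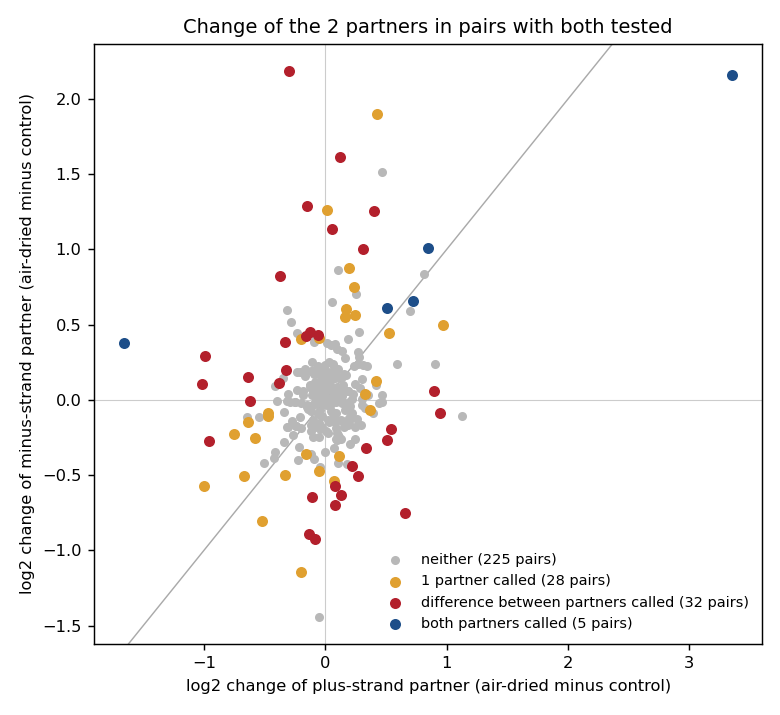
Log2 change, air-dried minus control, of the plus-strand partner (horizontal axis) and the minus-strand partner (vertical axis) in the 290 pairs with both partners tested, on the log2(FPKM + 1) scale, with the line of equal change in grey. Grey pairs had no call, yellow pairs 1 called partner, red pairs a called difference between partners and blue pairs 2 called partners. Many coloured pairs lie close to an axis, with 1 partner near 0, and the pair at the upper right is that on chromosome 13 with changes of 3.35 and 2.16.

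The largest joint rise was on chromosome 13. The plus-strand gene POPTR_0013s10350.r1 (10469858 to 10513159) had 130, 127 and 140 FPKM in air-dried leaves, against 14.5, 12.9 and 9.39 FPKM in controls. Its minus-strand partner (10471259 to 10514111) had 112.5, 105 and 106 FPKM in air-dried leaves, against 22.0, 23.7 and 24.5 FPKM in controls. The groups did not overlap in either gene. The log2 changes were 3.35 (SE 0.154, limma adjusted p = 0.0002166) for the plus partner and 2.16 (SE 0.0719, limma adjusted p = 9.147e-05) for the minus partner. The plus partner gained on the minus partner by 1.19 (SE 0.192, limma adjusted p = 0.007196), so the rise was unequal. The spans overlapped by 41901 bp, almost all of both genes, but the known transcripts were short. The plus gene's known transcript covered 1956 bp at one edge and averaged 0.607 FPKM in air-dried leaves. The minus gene's known transcript covered 1921 bp at the other edge and averaged 12.4 FPKM in air-dried leaves, against 3.70 FPKM in controls. Nearly all of the plus gene's FPKM lay in assembled transcripts of 43302 and 42921 bp, and most of the minus gene's in one of 42853 bp. With known transcripts alone the plus gene lay under the 1 FPKM level and was not tested, so no joint rise could be called.

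**Figure D3:**
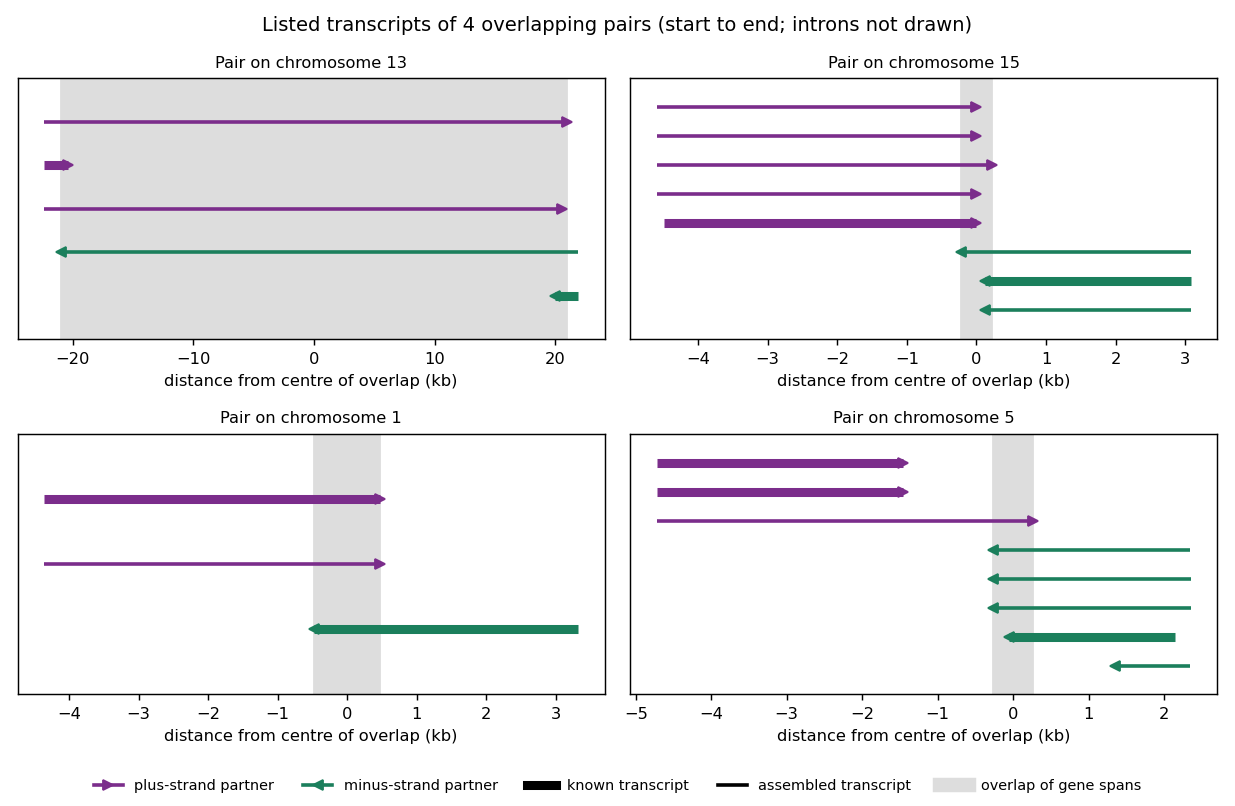
Start-to-end spans of the listed transcripts of 4 pairs, drawn to scale as distance in kb from the centre of the overlap (introns not drawn). Purple lines pointing right are plus-strand and green lines pointing left are minus-strand transcripts; thick lines are known and thin lines assembled transcripts, and grey marks the overlap. On chromosome 13 only assembled transcripts bridge the 41901 bp overlap, while on chromosome 1 the known transcripts themselves meet.

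The other joint rises were smaller and close to equal in both partners. On chromosome 16 the plus gene (4428224 to 4434901) had 266, 268 and 299 FPKM in air-dried leaves, against 162, 167 and 173 FPKM in controls. Its partner (4432871 to 4439995) had 71.8, 73.4 and 71.5 FPKM in air-dried leaves, against 44.4, 44.5 and 47.3 FPKM in controls. Neither gene's groups overlapped, and the changes of 0.72 (SE 0.0867) and 0.66 (SE 0.0639) differed by 0.06 (SE 0.120, limma adjusted p = 0.7759). With known transcripts alone neither partner passed the limma threshold (adjusted p = 0.08958 and 0.6294). On chromosome 7 the plus gene (2519184 to 2523653) had 139, 146 and 134.5 FPKM in air-dried leaves, against 91.1, 101 and 102 FPKM in controls. Its partner (2522983 to 2524246), with a single known transcript, had 12.5, 12.4 and 12.6 FPKM in air-dried leaves, against 8.59, 7.22 and 7.86 FPKM in controls. These genes, whose groups also lay apart, changed by 0.51 (SE 0.0815) and 0.61 (SE 0.0792), a difference of -0.10 (SE 0.135, limma adjusted p = 0.6812). The known spans of this pair do not overlap, as the plus gene's known transcript ended at 2520459. Only an assembled transcript with 30.5% of the plus gene's FPKM reached the partner.

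The fourth joint rise, on chromosome 1, was the weakest in level. The plus gene (47367082 to 47386630) had 2.83, 3.25 and 4.14 FPKM in air-dried leaves, against 1.03, 1.32 and 2.03 FPKM in controls. Its partner (47379436 to 47387257) had 2.16, 2.34 and 2.68 FPKM in air-dried leaves, against 0.966, 0.433 and 0.697 FPKM in controls. The minus gene's control mean of 0.699 FPKM lay under the 1 FPKM level, so it was tested only through its level in air-dried leaves. Changes were 0.85 (SE 0.191, limma adjusted p = 0.03763) and 1.01 (SE 0.153, limma adjusted p = 0.01068). The plus partner lost its call without air-dried 1, 2 or 3 (limma adjusted p = 0.06256, 0.1028 and 0.1075) and without control 1 or 2 (0.1036 and 0.1203). The transcript that carries the plus gene into its partner was listed near 0 in all controls and in air-dried 1, and had 0.302 and 1.10 FPKM in air-dried 2 and 3. With known transcripts alone neither partner of this pair passed the threshold (limma adjusted p = 0.09532 and 0.2681).

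On chromosome 15 the partners changed in opposite directions. The plus gene POPTR_0015s10520.r1 (11417979 to 11422790), the largest fall among all members, had 1.41, 1.88 and 2.38 FPKM in air-dried leaves, against 7.34, 8.85 and 7.92 FPKM in controls. Its minus-strand partner (11422349 to 11425648) had 14.5, 15.7 and 13.8 FPKM in air-dried leaves, against 10.6, 12.1 and 10.5 FPKM in controls. Neither gene's groups overlapped. The plus gene changed by -1.66 (SE 0.147, limma adjusted p = 0.001553) and the minus gene by 0.38 (SE 0.0877, limma adjusted p = 0.04095). The change of the difference between them was -2.03 (SE 0.168, limma adjusted p = 0.0005588), with -2.25 within set A and -1.97 within set B. The small rise of the minus gene lost its call without any one library (limma adjusted p = 0.1063, 0.1188 and 0.07011 without air-dried 1, 2 and 3, and 0.1301, 0.06142 and 0.1141 without control 1, 2 and 3), with the set as a term (0.06228), with quantile normalization (0.05071), with no filter (0.05511) and with known transcripts (0.3241). The overlap of 442 bp involved assembled transcripts on both sides. Known transcripts carried only 3.1% of the plus gene's FPKM. Its known transcript averaged 0.121 FPKM in air-dried leaves and 0.107 FPKM in controls, under the 1 FPKM level. The fall of the plus gene was therefore not tested with known transcripts alone.

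A direct test asked in which pairs the partners changed unequally. The log2 difference between plus and minus partner, fitted with limma over all 12667 neighbouring pairs with both genes tested, changed in 34 of 290 pairs (11.7%). Over all neighbouring pairs the share was 16.0%. The plus partner gained on the minus partner in 15 pairs (5.17%) and the minus partner gained in 19 (6.55%), where 8.03% and 8.02% of all neighbouring pairs changed in these directions. The size of these changes ranged from 0.49 to 2.48 with a median of 0.77, and 11 reached at least 1. In 23 of the 34 the partners' changes had opposite signs and in 11 the same sign. Choosing pairs by a large difference favours opposite signs in advance, and over all 290 pairs 54.1% had the same sign. The test also passed in 26 of the 54 pairs with exactly 1 called partner. In the other 28 an unequal change was not shown, although only 1 partner had passed. Without single libraries the counts were 15 and 13 without air-dried 1, 8 and 10 without air-dried 2, 9 and 13 without air-dried 3, 7 and 11 without control 1, 9 and 11 without control 2, and 16 and 18 without control 3. Adding a term for the library set gave 39 calls, 33 of them shared with these 34. With known transcripts alone 3 of 169 tested pairs changed unequally (1.78%, against 5.12% of all neighbouring pairs).

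The strongest unequal change was on chromosome 1. The minus gene (8217107 to 8220902), which has 1 transcript and that one known, had 14.0, 14.8 and 14.6 FPKM in air-dried leaves. In controls it had 2.49, 2.23 and 2.51 FPKM. Its plus-strand partner (8213221 to 8218050) had 6.79, 6.22 and 6.26 FPKM in air-dried leaves, against 7.73, 8.65 and 8.02 FPKM in controls. Both genes' groups lay apart, the minus gene's far and the plus gene's narrowly. The minus gene rose by 2.18 (SE 0.0735, limma adjusted p = 9.147e-05), while the plus gene's change was -0.30 (SE 0.0772, limma adjusted p = 0.05794). The difference changed by -2.48 (SE 0.133, limma adjusted p = 9.697e-05), and by -2.40 within set A and -2.48 within set B. With a common median or quantile normalization the plus gene also passed as a fall (limma adjusted p = 0.03762 and 0.04728). The known transcripts of this pair overlap by 944 bp.

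On chromosome 12 the minus gene (9539784 to 9541365) had 12.3, 13.0 and 10.6 FPKM in air-dried leaves, against 4.95, 4.84 and 3.29 FPKM in controls. Its plus-strand partner (9535791 to 9540931) had 17.9, 14.3 and 19.5 FPKM in air-dried leaves, against 16.5, 19.1 and 21.8 FPKM in controls, with overlapping groups. The difference changed by -1.43 (SE 0.265, limma adjusted p = 0.0121), and 72.6% of the minus gene's span lay under its partner's span. Transcripts reaching into the minus gene carried 33.96% of the plus gene's FPKM. An assembled plus transcript that ends at 9539330, before the minus gene, averaged 11.57 FPKM in air-dried leaves and 12.43 FPKM in controls. On chromosome 17 the minus gene (1592013 to 1872050) had 11.2, 11.7 and 10.9 FPKM in air-dried leaves, against 2.70, 3.51 and 2.86 FPKM in controls. Its plus-strand partner (1581731 to 1608339) had 7.71, 6.38 and 8.21 FPKM in air-dried leaves, against 6.37, 7.62 and 6.30 FPKM in controls, again with overlapping groups. The difference changed by -1.49 (SE 0.147, limma adjusted p = 0.001037). This minus gene joined 6 reference loci, and with known transcripts alone the direction turned (0.32, limma adjusted p = 0.7766).

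In the other direction, the plus gene on chromosome 5 (9164043 to 9169023) had 90.0, 89.4 and 94.3 FPKM in air-dried leaves, against 47.8, 46.7 and 46.2 FPKM in controls. Its minus-strand partner (9168503 to 9171117) had 6.57, 4.58 and 5.86 FPKM in air-dried leaves, against 5.32, 6.91 and 5.93 FPKM in controls. The plus gene's groups lay far apart and the minus gene's overlapped, and the difference changed by 1.03 (SE 0.157, limma adjusted p = 0.005818). Almost all of the plus gene's FPKM (99.7%) lay in an assembled transcript that extends its known end into the partner. The spans overlap by 521 bp, and the minus gene's log2 change was -0.09 (SE 0.146, limma adjusted p = 0.7662).

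On chromosome 14 the plus gene (9543899 to 9547521) had 5.42, 5.20 and 5.28 FPKM in air-dried leaves, against 3.96, 3.00 and 2.19 FPKM in controls. The minus gene (9547463 to 9548547) had 10.4, 9.79 and 6.01 FPKM in air-dried leaves, against 18.0, 15.0 and 12.6 FPKM in controls. Neither gene passed the threshold alone (limma adjusted p = 0.05309 and 0.08341), but the groups lay apart in both and their difference changed by 1.41 (SE 0.200, limma adjusted p = 0.004363). The known spans of this pair do not overlap, and known transcripts carried 9.33% of the plus gene's FPKM. Its known transcript averaged 0.00357 FPKM in air-dried leaves and 0.559 FPKM in controls, under the 1 FPKM level. The difference was therefore not tested with known transcripts alone. The plus gene passed with the set as a term (limma adjusted p = 0.03589) and without control 1 (0.03001), and the minus gene with the replicate block (0.03172). On chromosome 16 the minus gene (5856565 to 5861149) had 18.3, 13.5 and 15.3 FPKM in air-dried leaves, against 32.6, 32.8 and 26.5 FPKM in controls. Its plus-strand partner (5855936 to 5857430) had 4.99, 5.84 and 4.70 FPKM in air-dried leaves, against 5.91, 4.63 and 6.17 FPKM in controls. The minus gene fell by 0.92 on the log2 scale, and the difference changed by 0.84 (SE 0.221, limma adjusted p = 0.04252). That last call was lost without air-dried 2 or 3 (limma adjusted p = 0.1164 and 0.09133) and without control 1 or 2 (0.1147 and 0.1278). It was also lost with the replicate block (0.06897), with a pseudocount of 0.1 (0.05839), with no filter (0.05238) and with known transcripts (0.2985).

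**Figure D4:**
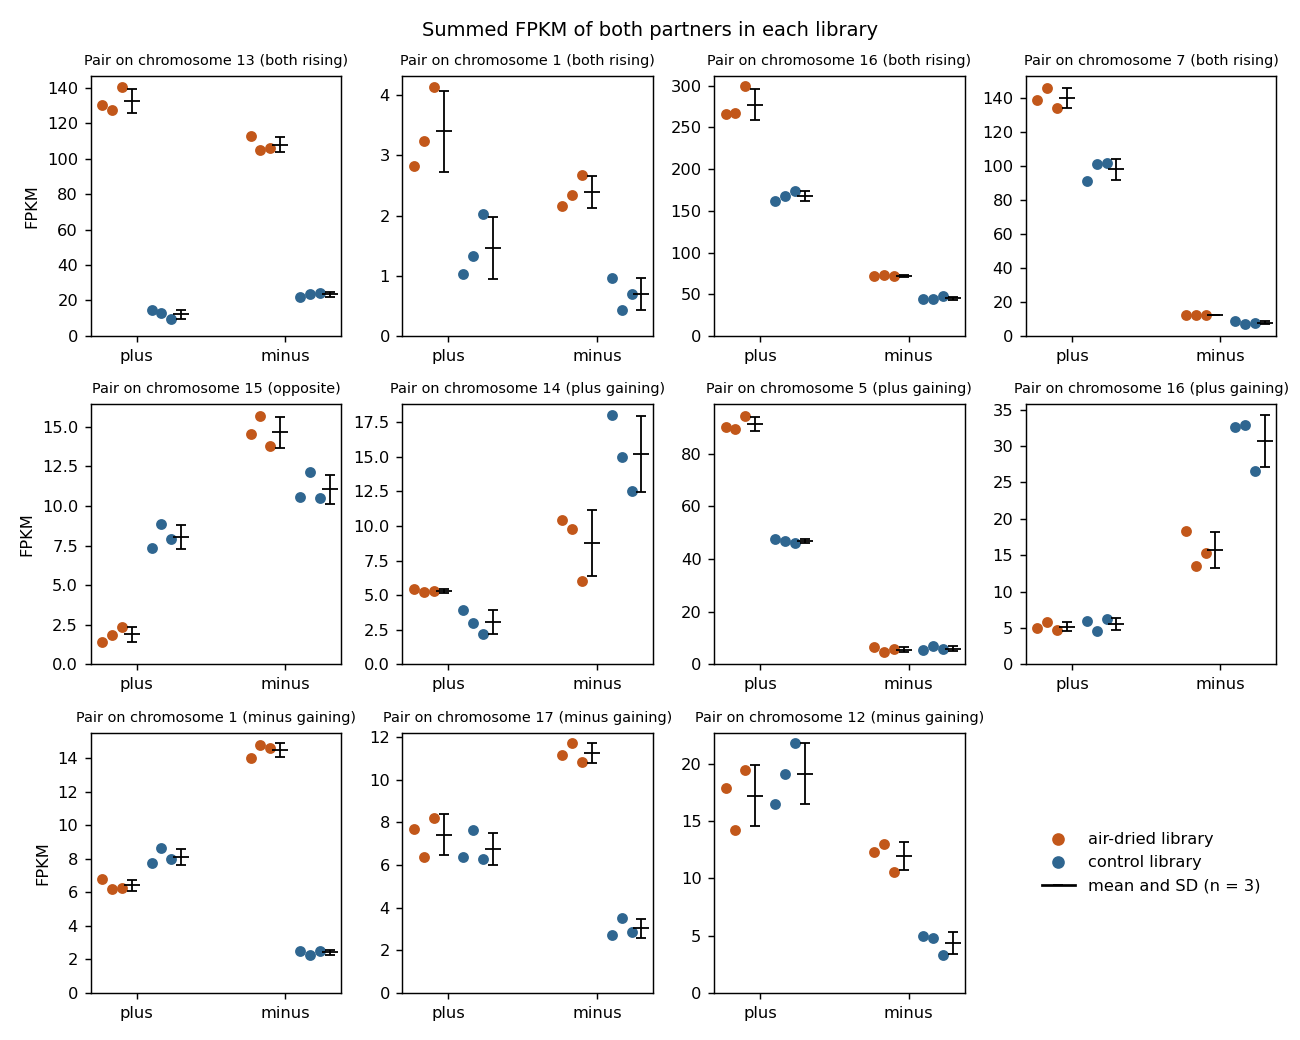
Summed FPKM of the plus and minus partner in each library (dots, air-dried left of control; bars show the mean and SD, n = 3) for the 11 pairs with joint, opposite or strongly unequal changes. On chromosome 13 both partners lie higher in all air-dried libraries, on chromosome 15 the plus partner lies lower and the minus partner higher, and on chromosome 1 (minus gaining) the order of the partners turns.

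The order of the partners turned between the groups in 7 pairs (2.41%, against 2.33% of all neighbouring pairs), in 6 of them towards the minus partner. One was the pair on chromosome 13 and others were those on chromosomes 1 and 17. On chromosome 14 the minus gene (13020154 to 13024480) averaged 9.24 ± 0.446 FPKM in air-dried leaves and 3.67 ± 0.230 FPKM in controls (SD, n = 3 each). Its partner (13016906 to 13020472) averaged 5.18 ± 1.11 FPKM in air-dried leaves and 4.89 ± 0.379 FPKM in controls (SD, n = 3 each). On chromosome 3 the plus gene (16051616 to 16055332) averaged 9.14 ± 1.71 FPKM in air-dried leaves and 19.1 ± 2.53 FPKM in controls (SD, n = 3 each). Its partner (16054266 to 16061491) averaged 10.7 ± 0.487 FPKM in air-dried leaves and 8.55 ± 0.715 FPKM in controls (SD, n = 3 each). On chromosome 8 a pair that touched by only 19 bp (13518305 to 13522222 and 13522204 to 13524399) had changes of 0.40 in the plus gene and 1.25 in the minus gene. The seventh pair, also on chromosome 8 (17570895 to 17577717 and 17575685 to 17579121), had near-equal levels, and its difference did not pass the threshold (-0.26, SE 0.130, limma adjusted p = 0.2306). These last 4 pairs were chosen after their values were seen.

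Calls were also found in members whose partner was hardly expressed. In the 200 one-sided pairs 15 expressed partners were called (7.50%, against 13.0% of all tested genes), 11 rising and 4 falling. The second largest rise among members belonged to the minus-strand gene POPTR_0005s28110.r1 on chromosome 5 (25477547 to 25479000). It had 22.4, 28.0 and 25.5 FPKM in air-dried leaves, against 2.05, 2.16 and 1.39 FPKM in controls, a log2 change of 3.20 (SE 0.141, limma adjusted p = 0.0001823). Its plus-strand partner was listed at 0 in every library, although the known spans overlap by 405 bp. The second largest fall belonged to POPTR_0005s11410 on the minus strand of chromosome 5 (8246916 to 8248309). It had 6.17, 6.46 and 5.91 FPKM in air-dried leaves, against 15.2, 14.7 and 14.5 FPKM in controls, a log2 change of -1.14 (SE 0.0670, limma adjusted p = 0.000499). Its groups lay apart, while the far more abundant plus-strand partner, at 122.9, 83.0 and 70.3 FPKM in air-dried leaves and 115.5, 132 and 72.1 FPKM in controls, had overlapping groups. The change of the difference between these partners was 0.94 (SE 0.276, limma adjusted p = 0.06203), and its limma adjusted p was 0.00168 with a term for the library set.

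The most abundant pairs held partners of very different summed level. On chromosome 11 a plus gene with 1 known transcript (14760426 to 14761617) had 9079, 3564 and 3196 FPKM in air-dried leaves, against 4630, 5659 and 1581 FPKM in controls. Its minus-strand partner (14760974 to 14765698) had 88.0, 54.9 and 51.2 FPKM in air-dried leaves, against 87.3, 91.7 and 32.1 FPKM in controls. Neither gene was called (limma adjusted p = 0.7182 and 0.984), and their deviations from the group means followed each other with a Pearson r of 0.97 over the 6 libraries. Levels followed the library sets: in each group both genes were higher in set A than in set B. With the set as a term the plus gene was called with a log2 change of 0.96 (limma adjusted p = 0.02951). The next pairs by level lay on chromosome 9 and on another part of chromosome 1. Their plus genes (9521299 to 9524364 and 43043536 to 43048809) averaged 3523 ± 1189 and 2621 ± 439 FPKM in air-dried leaves and 3868 ± 1842 and 2693 ± 413 FPKM in controls (SD, n = 3 each). Their minus partners lay at 16.1 to 20.8 FPKM in air-dried leaves and 16.3 to 19.2 FPKM in controls, and no partner was called. Transcripts reaching into the partner carried 100% of the plus gene's FPKM on chromosome 11, 23.7% on chromosome 9 and 0.407% on chromosome 1. In this chromosome 1 pair the known plus transcript that overlaps the partner averaged 13.6 FPKM in air-dried leaves and 7.31 FPKM in controls.

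The pairs with the longest and shortest overlaps are described singly, as they are too few to give a share of calls. The longest overlap with both partners tested, 160149 bp on chromosome 19 (10295947 to 10460325 and 10300177 to 10462821), joined a plus gene at 103 to 184 FPKM in air-dried leaves and 74.2 to 174.5 FPKM in controls to a minus gene at 2.01 to 2.77 FPKM in air-dried leaves and 2.22 to 4.42 FPKM in controls. Neither was called. On chromosome 17 (13302460 to 13443574 and 13315375 to 13455306) the overlap was 128200 bp. There the plus gene averaged 18.3 ± 1.94 FPKM in air-dried leaves and 29.2 ± 5.28 FPKM in controls (SD, n = 3 each), a log2 change of -0.63 (SE 0.147, limma adjusted p = 0.04137). That call was lost without air-dried 1, 2 or 3 (limma adjusted p = 0.07539, 0.1256 and 0.1061) and without control 2 or 3 (0.119 and 0.07502). It was also lost with the replicate block (0.07847), with the set as a term (0.0554), with no filter (0.05076) and with known transcripts (0.2673). On chromosome 3 (18477805 to 18598023 and 18482763 to 18604227) the overlap was 115261 bp, and neither partner was called. Among pairs with both partners tested the shortest overlaps were 5 bp on chromosome 2 (1344641 to 1345241 and 1345237 to 1348144), where neither partner was called, and 7 bp on chromosome 13 (11897341 to 11901155 and 11901149 to 11906716). In the 7 bp pair the plus gene rose by 0.42 (SE 0.0785, limma adjusted p = 0.02071), with 4.68, 5.14 and 5.20 FPKM in air-dried leaves, against 3.40, 3.52 and 3.53 FPKM in controls. That call was lost without air-dried 2 or 3 (limma adjusted p = 0.06769 and 0.0665) and without control 1, 2 or 3 (0.07469, 0.07597 and 0.06157), with the replicate block (0.06038) and with known transcripts (0.08113).

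Other neighbouring genes give the scale for these counts. Among 2927 convergent pairs with a gap between the genes, 24.3% had exactly 1 called gene and 17.1% changed unequally, and among 625 of them with a gap of at most 500 bp the shares were 19.5% and 13.1%. Divergent pairs gave 19.9% and 14.0%, pairs on the same strand 23.5% and 16.9%, and 75 convergent pairs with 1 gene inside the other 13.3% and 5.33%. The overlapping convergent pairs, at 18.6% and 11.7%, lay closest in both shares to the convergent pairs with a short gap. Unequal changes were found in 6.67% of 30 pairs with under 100 bp of overlap, 10.1% of 79 from there to under 500 bp, 14.9% of 67 from 500 bp to under 1000 bp, 12.5% of 80 from 1000 bp to under 5000 bp and 11.8% of 34 with 5000 bp or more. The 34 longest overlaps held 2 of the 4 joint rises (5.88%, against 0% to 1.49% in the shorter bins). Partners' changes there had the same sign in 64.7% of pairs and a Spearman correlation of 0.46, where the shorter bins gave 48.8% to 66.7% and 0.01 to 0.25. The limit of 5000 bp for this bin was chosen after seeing the data. Of its 2 joint rises, that on chromosome 1 held a minus gene tested only through its level in air-dried leaves. In that on chromosome 13 known transcripts carried 0.232% of the plus gene's FPKM. The partners' changes had the same sign in 54.1% of overlapping pairs and in 53.5% of other neighbours. Their changes had a Spearman correlation of 0.16 across the 290 pairs and 0.10 across 12377 other neighbouring pairs, a description over pairs that share the same libraries. Deviations of the partners from their group means had a median Pearson r of 0.07 in overlapping pairs and 0.06 in other neighbours. An r above 0.9 was found in 13 overlapping pairs (4.48%) and in 2.92% of the others, and 10 of the 13 were among the 166 pairs overlapping only through assembled transcripts. No test of these differences between classes was run.

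**Figure D5:**
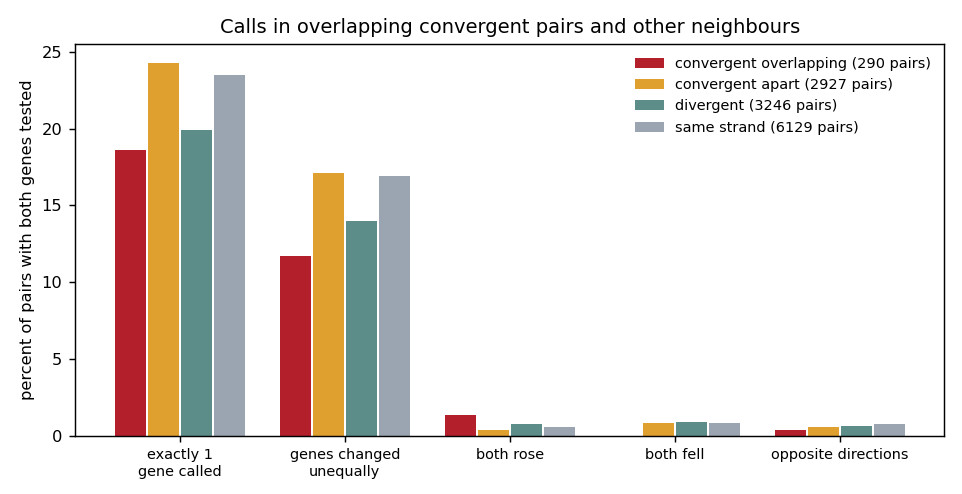
Percent of pairs with both genes tested (vertical axis, from 0) in which exactly 1 gene was called, the genes changed unequally, both rose, both fell or they changed in opposite directions, for overlapping convergent pairs and 3 other kinds of neighbours. One-sided and unequal changes make up 18.6% and 11.7% of overlapping pairs, while joint and opposite changes stay below 1.5% in every class.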

How the data were processed

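The deposited values are FPKM per transcript, 1 column per library, per the file headers. The submitters' processing notes list FastQC, TopHat and Cufflinks and give no version. Per the labels' protocols, poly(A)-selected TruSeq libraries were sequenced in 100 bp paired reads. No source used here gives the build, annotation, strand setting or depth. The 112919 transcripts of each file (45773 known, the others assembled from the reads) were summed to 40537 genes.

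The 22356 genes whose 6-library mean reached 1 FPKM were compared on log2(FPKM + 1), without rescaling, with limma 3.58.1 (lmFit, eBayes with trend) under R 4.3.3, by two-sided tests adjusted over all genes after Benjamini-Hochberg, with a threshold of 0.05. Fold changes on this scale understate the change of low genes. For each neighbouring pair the per-library difference between the genes was fitted in the same way, over 12667 pairs, with the mean level of both genes as the trend covariate. Both fits were tested on simulated data: among 22356 genes, 49 of the 50 given a simulated log2 rise of 1 were called, as were 8 unchanged genes. The simulation held no library sets, so these rates need not hold here.

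Members, lists and library sets were chosen with earlier results of these data known. Pairs were named by a rule: up to 4 joint rises and 4 joint falls with the largest smaller change, up to 6 opposite changes, the 3 largest unequal changes each way, the 3 highest summed levels, and the 3 longest and 2 shortest overlaps. Accessions are given for the 2 largest rises and the 2 largest falls among called members whose groups lay apart. Genes listed at 0 throughout a group were left out of the first 3 choices. Tables used Python 3.11.15 with pandas 2.3.3. Alternatives covered the pseudocount, filter, scaling, trend, block, set term, left-out libraries, known transcripts and known spans.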

Additional observations from a re-analysis of the deposited data

How the results depend on the processing

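All settings named here were planned, except those by overlap length and by locus accession, which were chosen after seeing the data. For each change below the cause was not tested. Summing known transcripts gave 13 rising and 13 falling members, 1 joint rise, no opposite pair, and 1 and 2 unequal pairs (plus and minus gaining), from 169 pairs with both partners tested (1.78% unequal, against 5.12% of all neighbouring pairs); it also turned the difference of the pair on chromosome 17 to 0.32. Choosing pairs by known spans, which left 221, gave 17, 12, 1, 0, 3 and 10, with a median level difference of 1.56. A mean of at least 5 FPKM, which left 158 pairs, gave 20 falling members, no opposite pair, 7 and 12 unequal pairs, and a level difference of 1.30. The level difference was 1.56 and 1.66 with pseudocounts of 0.5 and 0.1, and 2.08 with no filter. Opposite pairs numbered 0 with no filter or with the set as a term, and 3 with a common median. Both partners fell in 1 pair with the set as a term. Overlaps of at most 5000 bp held 2 joint rises.

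With a library left out, from fewer samples, rising members ranged from 23 to 36, falling from 16 to 21, joint rises from 3 to 4, opposite pairs were 0, plus-gaining pairs 7 to 16 and minus-gaining pairs 10 to 18, and the level difference ran from 1.42 to 1.51. Same-numbered libraries did not deviate together throughout (correlations of 0.187, -0.0961 and 0.292), so the numbers were not taken as pairs. With the replicate block 38 members rose and 23 fell, with 4 joint rises, 1 joint fall, 1 opposite pair, and 16 and 20 unequal pairs. Of 410 alternatives to the 25 called values of named pairs, 364 kept direction and call, 45 kept direction only and 1 reversed. Without read numbers, no precision can be given for low levels.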
